A study of Mus musculus with 8 samples.

Results

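The cyclic nucleotide phosphodiesterases described here are 9 genes, Pde10a, Pde1a, Pde5a, Pde3a, Pde3b, Pde4b, Pde4d, Pde7b and Pde8a. They were picked by name from the authors' table of results and joined by Ensembl identifier to the count table, which lists 49671 genes. The family was chosen on a measured value, the higher Pde10a level in the SmoM2 columns, so the difference between the groups is given for all 9 as a description and not as a test. All 9 passed the filter on low counts.

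Libraries came from stromal cells of adult mouse lung. The 4 SmoM2 mice carried Gli2creERT2-tdt with R26RYFP/SmoM2, so Cre made under Gli2 control and activated by tamoxifen switches on a yellow fluorescent reporter and SmoM2, an active form of the Hedgehog transducer Smoothened. The 4 control mice carried Gli2creERT2-tdt with R26RYFP, the same Cre driver and reporter without SmoM2. Per the labels' protocols, SmoM2 mice received 200 mg of tamoxifen per kg per day for 5 days into the peritoneum, and the dosing of controls is not given in the sources used here. Live reporter-positive cells were sorted from whole dissociated lung, so the profile is that of cells in which Cre from the Gli2 allele had acted. The 8 titles number different animals, and p-values therefore measure the spread between mice. Columns show group and number but not the animal, and libraries are named by these.

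Phosphodiesterases end cyclic nucleotide signals by cutting cAMP or cGMP to the inactive monophosphate. Adenylyl and guanylyl cyclases make the messengers, which act through protein kinase A (PKA), protein kinase G, EPAC exchange factors and gated channels. Each phosphodiesterase family has its own substrate preference and control, by calcium and calmodulin (Pde1a), by cGMP (Pde3a, Pde3b and Pde5a) or by phosphorylation. In lung, Pde5a is the target of drugs for pulmonary hypertension, and inhibitors of the family of Pde4b and Pde4d are used in chronic obstructive lung disease. PKA is also a brake on the Hedgehog pathway, since it phosphorylates the GLI factors.

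The family is defined by a shared catalytic domain that binds metal ions through histidine and aspartate residues. The 36 bases that encode the metal-binding motif are printed to show what the 9 genes share. Capitals mark the His-Asp codon pair and the histidine codon that follows it, and the letters run 5′ to 3′ on the coding strand of mm10 transcripts (GENCODE M21).
Pde10a: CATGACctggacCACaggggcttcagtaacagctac
Pde1a: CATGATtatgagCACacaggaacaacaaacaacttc
Pde5a: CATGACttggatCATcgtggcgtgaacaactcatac
Pde3a: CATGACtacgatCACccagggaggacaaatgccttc
Pde3b: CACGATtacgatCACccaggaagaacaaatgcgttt
Pde4b: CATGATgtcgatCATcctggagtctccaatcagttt
Pde4d: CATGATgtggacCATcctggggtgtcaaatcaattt
Pde7b: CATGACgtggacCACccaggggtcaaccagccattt
Pde8a: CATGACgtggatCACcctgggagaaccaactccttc
Each window lies inside a coding exon. For Pde10a it is chr17:8967449-8967484 (plus strand, exon 18 of 23 in the transcript with the longest coding sequence that holds the motif). The capital letters differ between members only at the last base of a codon. Pde3a and Pde3b, like Pde4b and Pde4d, were identical at 30 of 36 bases. The longest run shared by the transcripts of any 2 members was 32 bases, between Pde4b and Pde4d, so no member is a near-identical copy of another.

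Totals of estimated counts ran between 91.6 and 111.6 M units per library. In every library 5 units was the commonest value above 0 and was taken as the yield of 1 fragment, which the values do not settle. On that reading the least abundant member, Pde10a, had 155 to 463 fragments per library and the most abundant, Pde4b, 2054 to 4414. Levels are CPM, counts scaled to a common TMM-adjusted library total. The 6 pan-stromal markers were all detected, with summed levels of 17148 to 29515 CPM in SmoM2 and 14178 to 30020 CPM in control libraries. Markers of cells outside the stroma were present at lower summed levels, immune markers at 472 to 1369 CPM in SmoM2 and 468 to 664 CPM in control, and epithelial markers at 272 to 870.0 CPM in SmoM2 and 329 to 1353 CPM in control. The Hedgehog targets Gli1, Ptch1 and Hhip had log2 fold changes, SmoM2 over control, between −0.12 and 0.23, and their 95% intervals all spanned 0, reaching 1.01 at most. SmoM2 is therefore the group's label here, not a measured activation. In sorted bulk RNA, fewer cells of a type and less RNA per cell cannot be told apart.

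Pde10a cleaves both cAMP and cGMP and is best known from striatal neurons of the brain. It had 22.5, 18.2, 15.8 and 18.6 CPM in the SmoM2 libraries, against 8.85, 9.71, 8.43 and 13.5 CPM in the control libraries. Every SmoM2 library was above every control library, and the gap lay between SmoM2 3 and control 4. Pde10a averaged 18.8 ± 2.78 CPM in SmoM2 and 10.1 ± 2.30 CPM in control (SD, n = 4 per group). The log2 fold change, SmoM2 over control, was 0.89 (SE 0.18, 95% interval 0.49 to 1.30), or 1.86-fold higher in SmoM2.

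These Pde10a values chose the family, so they support no conclusion about it. Groups did not overlap, with SmoM2 higher, for 1.02% of the 20162 genes tested, and for 2.44% in either direction. Of the 9 members, Pde10a was the only one without overlap. The main test, edgeR's quasi-likelihood test with Benjamini-Hochberg adjustment, called 0% of genes (0 of 20162) and 0 of the 9 members, with 756 genes at an unadjusted p under 0.05. DESeq2 called 0.275% (67 of 24384), Pde10a alone among the members. The authors' deposited table gives Pde10a normalised means of 1889 in SmoM2 and 1013 in control, a fold change of 1.87 and an adjusted p of 0.395.

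**Figure D1:**
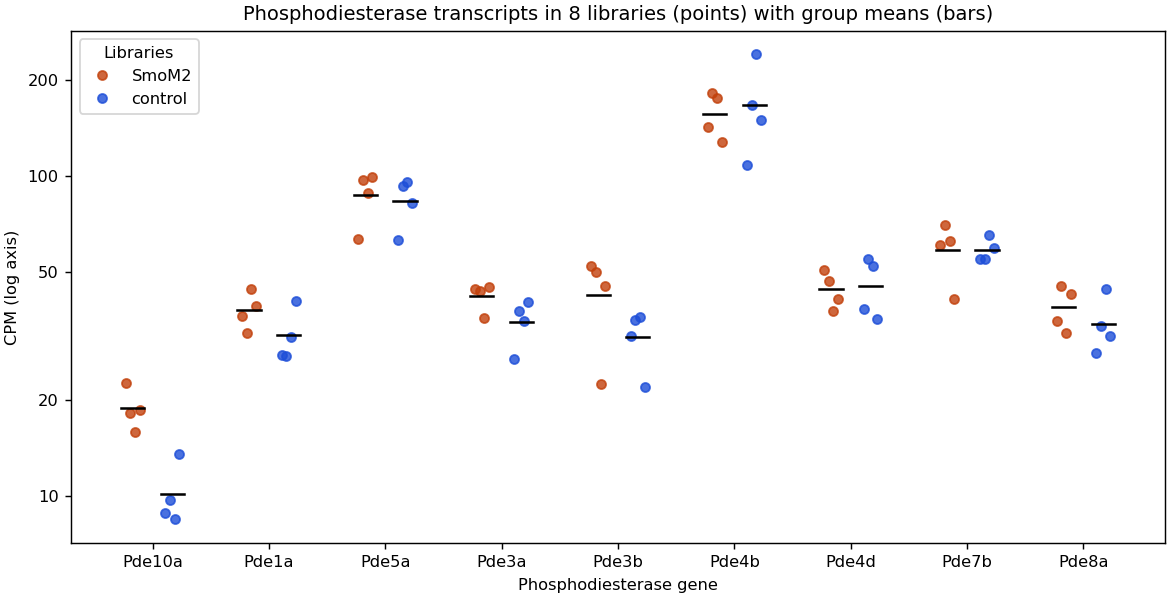
CPM (log axis) of the 9 phosphodiesterases in each of 4 SmoM2 and 4 control libraries (points), with group means as bars. Pde10a is the only gene whose groups do not overlap, at 15.8 to 22.5 CPM in SmoM2 and 8.43 to 13.5 CPM in control.

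Sex, read from Xist and Y-linked genes, was balanced at 2 male and 2 female libraries per group. Among females Pde10a averaged 17.2 CPM in SmoM2 and 11.6 CPM in control, and among males 20.4 CPM in SmoM2 and 8.64 CPM in control. The differences of mean log2 level were 0.58 in females and 1.23 in males, and whether the sizes differ was not tested. The shared direction was fixed in advance, because the groups do not overlap. Mesothelial markers also moved with the group, the means of all 8 listed markers being lower in SmoM2 and none at 0. Their summed level was 100.3 to 218 CPM in SmoM2 libraries, against 271 to 483 CPM in control libraries. Endothelial markers, 7 of 8 of them lower and none at 0, summed to 71.2 to 126 CPM in SmoM2 and 69.3 to 175 CPM in control. Their median log2 fold change was −1.12, but −0.29 without control 4, where 3 were higher and 5 lower. Esam had 2.59 to 4.73 CPM in SmoM2 and 7.22 to 15.3 CPM in control. Kdr had 8.37 to 16.3 CPM in SmoM2 and 16.6 to 34.2 CPM in control. Both had no overlap between the groups, as for 2.44% of all genes. Tek had the highest mean of the list, 59.6 ± 29.9 CPM in SmoM2 and 37.2 ± 15.1 CPM in control. Tek was the 1 marker higher in SmoM2, so the sum does not follow the majority of the list. Adventitial fibroblast markers, 10 of 11 of them higher and none at 0, summed to 7399 to 14083 CPM in SmoM2 and 5664 to 11210 CPM in control. Immune markers had 7 of 8 higher, while 9 of 11 alveolar fibroblast, 8 of 10 smooth muscle, 6 of 9 pericyte and 6 of 8 epithelial markers were lower, with no marker at 0. DESeq2, which called 0.275% of all genes, called 3 mesothelial, 1 endothelial and 1 alveolar fibroblast marker, all lower in SmoM2, and edgeR called none. The alveolar marker was Wnt2, at 11.6 to 15.3 CPM in SmoM2 and 22.4 to 27.4 CPM in control. Some splits rested on 1 library. Immune markers were 4 higher and 4 lower without SmoM2 4, and epithelial markers 6 higher and 2 lower without control 4. Smooth muscle markers were 5 higher and 5 lower without control 2. Without control 4, adventitial markers were 7 higher and 4 lower, and alveolar markers 4 higher and 7 lower. Alveolar fibroblast markers summed to 10603 to 15249 CPM in SmoM2 and 11717 to 15836 CPM in control, smooth muscle markers to 1041 to 1549 CPM in SmoM2 and 1342 to 1719 CPM in control and pericyte markers to 580.1 to 756 CPM in SmoM2 and 364 to 661 CPM in control. Most of the pericyte sum was Abcc9 (315 ± 65.4 CPM in SmoM2, 280 ± 55.1 CPM in control) and Postn (219 ± 148 and 113 ± 79.0 CPM). Both had a higher mean in SmoM2 with overlapping groups, so the sum does not follow the majority of the list. Within groups, Pde10a and the adventitial level gave Pearson r −0.31 (exact permutation p 0.531, adjusted over 45 relations 0.769), and r was 0.19 without SmoM2 3 and control 4. The relation with smooth muscle markers is given with those of the other members. Relations within groups do not address the difference between groups. The part of any of these marker lists in the Pde10a difference was not tested.

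Pde10a (ENSMUSG00000023868) lies on chromosome 17, 8525372 to 8986648, plus strand, in mm10. RefSeq gives promoter windows at 2 of its starts, and both are printed because the gene carries the difference that chose the family. The letters are the 250 bases before each start, plus strand, from RefSeq (GRCm38.p6), with no capitals because no searched motif was found in them.
Pde10a start 1, chr17:8801495-8801744: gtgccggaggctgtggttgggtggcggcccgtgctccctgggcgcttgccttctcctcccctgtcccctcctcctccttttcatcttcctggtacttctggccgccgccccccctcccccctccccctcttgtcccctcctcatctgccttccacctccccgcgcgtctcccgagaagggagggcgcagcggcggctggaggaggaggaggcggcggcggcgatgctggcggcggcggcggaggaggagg
Pde10a start 2, chr17:8849735-8849984: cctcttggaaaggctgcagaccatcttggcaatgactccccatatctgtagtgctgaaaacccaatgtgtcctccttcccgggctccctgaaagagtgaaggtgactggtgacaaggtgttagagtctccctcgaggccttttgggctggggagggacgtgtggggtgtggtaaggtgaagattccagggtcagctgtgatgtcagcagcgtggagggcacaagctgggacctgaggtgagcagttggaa
The first window was 72.8% G and C with 21 CG pairs, and the second 56.0% with 4 CG pairs, against a median of 52.4% over 32851 windows. RefSeq windows were matched for 7 members (14 windows of 300 bases), those other than Pde3a and Pde3b. The GLI motif TGGGTGGTC, read on both strands, was in none of the 14 windows and in 0.253% of all windows. The cAMP response element TGACGTCA was in none of them and in 1.79% of all windows. Its shorter core TGACG, which the full element contains, was in 3 member windows, 1 each of Pde1a, Pde4b and Pde8a, and in 20.8% of all windows. A missing match says only that these letters are not in the window.

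Pde1a is activated by calcium and calmodulin and cleaves cGMP and cAMP. It had 36.4, 32.4, 44.5 and 39.2 CPM in the SmoM2 libraries, against 27.5, 27.4, 31.5 and 40.7 CPM in the control libraries. The groups overlapped, and control 4 held the highest control value. Pde1a averaged 38.1 ± 5.10 CPM in SmoM2 and 31.8 ± 6.26 CPM in control, a log2 fold change of 0.26 (SE 0.15, 95% interval −0.09 to 0.61). Pde5a, the cGMP-specific enzyme, had 63.7, 97.3, 88.4 and 99.3 CPM in the SmoM2 libraries, against 63.3, 92.9, 95.8 and 82.6 CPM in the control libraries. SmoM2 1 and control 1 were the low libraries of their groups at nearly the same level, and the log2 fold change was 0.06 (SE 0.17, 95% interval −0.34 to 0.46).

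Pde3a and Pde3b cleave cAMP and are inhibited by cGMP, Pde3a being known from heart and vessel muscle and Pde3b from fat and liver. Pde3a had 44.5, 43.6, 36.1 and 44.9 CPM in the SmoM2 libraries, against 26.8, 38.0, 35.2 and 40.4 CPM in the control libraries. Among the SmoM2 libraries 3 lay close together and SmoM2 3 lay below them, inside the control range. The log2 fold change of Pde3a was 0.27 (SE 0.14, 95% interval −0.04 to 0.58). Within the sexes the differences of mean log2 level were 0.04 in females and 0.52 in males, so the pooled value came mostly from the male libraries. Pde3b had 52.4, 50.2, 22.4 and 45.3 CPM in the SmoM2 libraries, against 31.6, 35.4, 36.3 and 22.0 CPM in the control libraries. SmoM2 3 and control 4 were low at nearly the same level, and the other 3 SmoM2 libraries lay above all controls. Pde3b averaged 42.6 ± 13.8 CPM in SmoM2 and 31.3 ± 6.56 CPM in control, a log2 fold change of 0.44 (SE 0.27, 95% interval −0.17 to 1.06), the second largest of the 9 and the one with the widest interval. Its differences of mean log2 level were 0.19 in females and 0.60 in males.

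SmoM2 3 and control 4 also stood apart in stromal markers. The adventitial fibroblast level (mean log2 CPM of 11 markers) was 8.65 in SmoM2 3, against 9.30 to 9.38 in the other SmoM2 libraries, and 8.24 in control 4, against 8.94 to 9.12 in the other controls. Their alveolar fibroblast levels were the highest of their groups, at 8.99 in SmoM2 3 and 9.23 in control 4. The within-group relations of Pde3b with both marker lists are given with those of the other members.

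Pde4b and Pde4d are cAMP-specific, and Pde4b is the form known for limiting cAMP in inflammatory cells. Pde4b had 143, 182, 176 and 128 CPM in the SmoM2 libraries, against 109, 167, 240.4 and 149.8 CPM in the control libraries. Control 3 and control 1 were the highest and the lowest of all 8 libraries, so the control range enclosed the SmoM2 range. Pde4b averaged 157 ± 26.0 CPM in SmoM2 and 167 ± 55.1 CPM in control, a log2 fold change of −0.09 (SE 0.23, 95% interval −0.61 to 0.44). Pde4d had 50.9, 47.1, 37.9 and 41.4 CPM in the SmoM2 libraries, against 38.5, 54.9, 52.3 and 35.7 CPM in the control libraries. Its control range likewise enclosed the SmoM2 range, and its log2 fold change was −0.03 (SE 0.16, 95% interval −0.41 to 0.34).

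Pde7b and Pde8a are cAMP-specific enzymes with high affinity for their substrate. Pde7b had 61.1, 70.6, 62.6 and 41.3 CPM in the SmoM2 libraries, against 55.0, 55.0, 65.4 and 59.7 CPM in the control libraries. Its controls were close together, SmoM2 4 was the lowest library, and the log2 fold change was 0.0028 (SE 0.16, 95% interval −0.35 to 0.36). Pde8a had 35.3, 45.3, 32.2 and 42.9 CPM in the SmoM2 libraries, against 27.9, 33.9, 44.3 and 31.6 CPM in the control libraries. The groups shared most of their range, and the log2 fold change was 0.18 (SE 0.17, 95% interval −0.20 to 0.55).

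Across the 9 members, 7 had a higher and 2 a lower mean in SmoM2, and 49.0% of all genes tested were higher. The median log2 fold change was 0.18 for the members, 0.12 for the other 8 without Pde10a, and −0.0042 for all genes tested. The 95% interval spanned 0 for 8 members. Those intervals reached at most 1.06 upward, for Pde3b, and −0.61 downward, for Pde4b. Leaving out 1 library turned the direction of Pde4b (control 3 or SmoM2 4), Pde4d (control 2, control 3 or SmoM2 3), Pde5a (control 1, SmoM2 2 or SmoM2 4) and Pde7b (control 1 or 2, or SmoM2 1, 2 or 3). Pde1a, Pde3a, Pde3b and Pde8a stayed higher in SmoM2 whichever library was left out, though sizes moved. Pde10a did too, which was fixed in advance because its groups do not overlap. Pde8a was 0.09 without control 1, 0.09 without SmoM2 2 and 0.32 without control 3, Pde3a 0.16 without control 1, and Pde1a 0.41 without control 4.

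**Figure D2:**
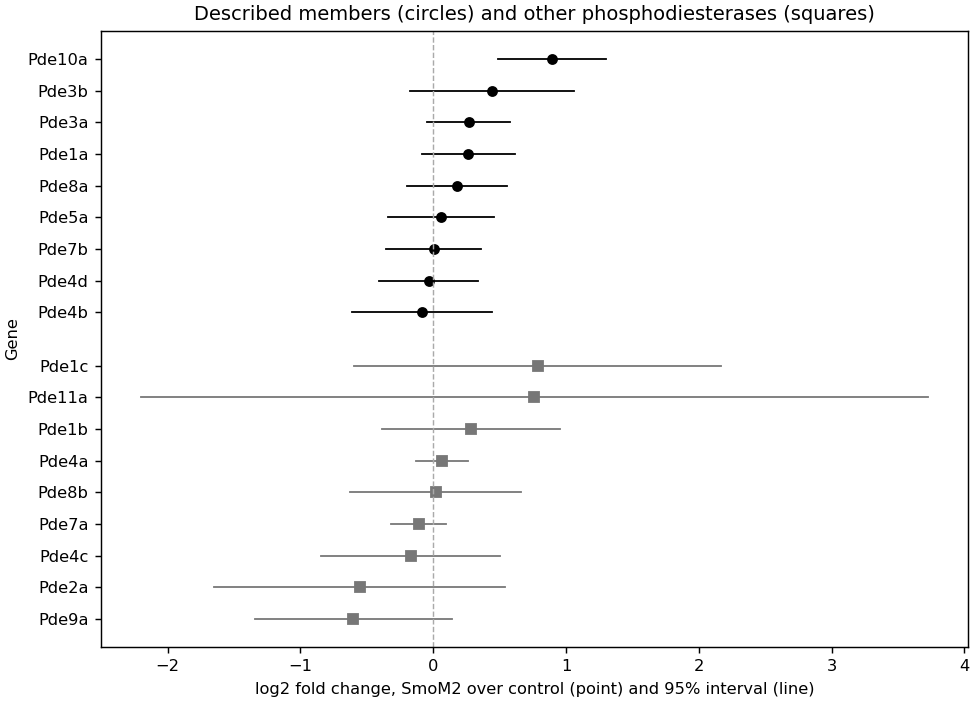
Log2 fold change, SmoM2 over control, with its 95% interval for the 9 described genes (circles) and the 9 other phosphodiesterases that were tested (squares). Pde10a sits at 0.89, and the interval of every other gene drawn crosses 0.

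Variation between mice was below that of the median gene for 8 of the 9 members. By mean level the members stood from the 57.9 percentile (Pde10a) to the 94.6 percentile (Pde4b) of genes tested. Genes of like level were not compared. The biological coefficient of variation that edgeR fitted lay between 16.8% for Pde3a and 28.1% for Pde3b, against a median of 27.3% over all genes tested. Pde3b was the only member above that median. The highest library was 2.67 times the lowest for Pde10a, 2.39 times for Pde3b and 2.21 times for Pde4b, and 1.54 to 1.71 times for the other 6.

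Levels of different genes were compared as CPM per kb of exon (union of annotated exons), across all 8 libraries. Pde4b stood highest at 15.3 ± 3.81 CPM per kb (SD, n = 8), followed by Pde8a at 9.07 ± 1.63 and Pde5a at 8.69 ± 1.48. Pde1a, Pde7b, Pde3b, Pde4d and Pde3a followed, between 5.81 and 3.04 CPM per kb. Pde10a was the lowest of the 9 at 1.46 ± 0.216 CPM per kb in SmoM2 and 0.787 ± 0.179 CPM per kb in control (n = 4 each).

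Neighbours in this order were compared by an exact two-sided sign-flip permutation test over the 8 libraries, adjusted over the 8 pairs, with a smallest possible p of 0.00781. Pde4b was above Pde8a and Pde5a above Pde1a in 8 of 8 libraries each (adjusted permutation p 0.0208 for each), with mean log2 differences of 0.74 and 0.58. Pde3a was above Pde10a in 8 of 8 libraries by a mean log2 difference of 1.50, which is a description because the Pde10a values chose the family. The other 5 pairs of neighbours did not differ beyond their spread, with adjusted permutation p from 0.0625 to 0.609. The middle of the order depends on the gene length. Per kb of the longest transcript Pde5a was the second, Pde7b the third, Pde4d the fourth and Pde8a the fifth, while Pde4b stayed the highest and Pde10a the lowest.

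**Figure D3:**
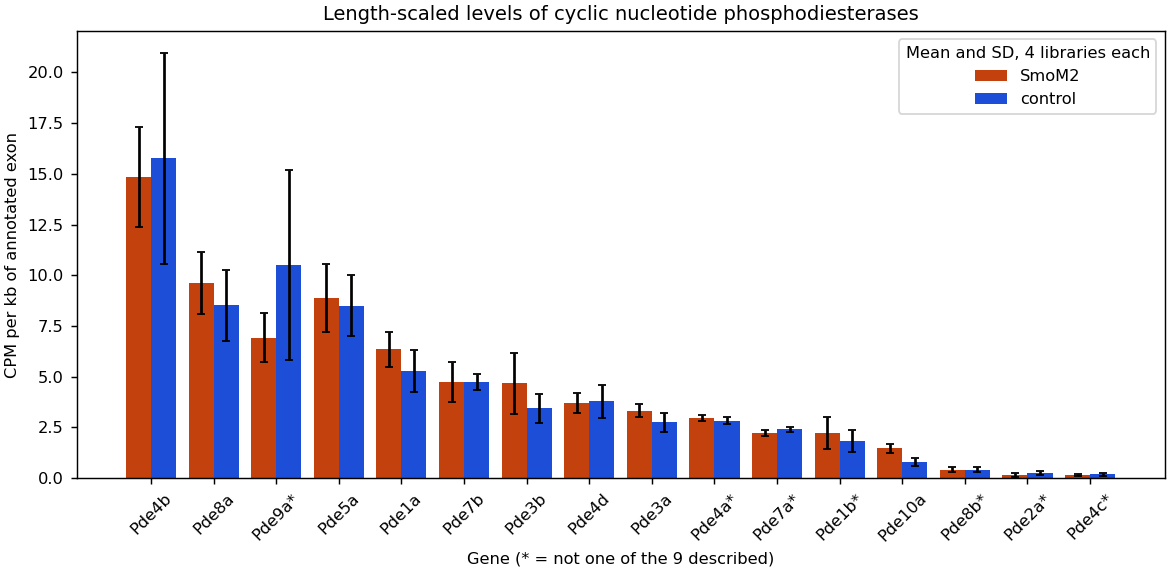
CPM per kb of annotated exon (mean and SD, 4 libraries per group) for the phosphodiesterase genes with a mean above 0.1 CPM per kb, with asterisks for genes outside the 9. Pde4b is the tallest pair of bars at 14.9 in SmoM2 and 15.8 in control.

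Summed over 21 cyclic nucleotide phosphodiesterase genes, the level was 72.8 ± 5.13 CPM per kb in SmoM2 and 72.0 ± 13.4 CPM per kb in control. The 9 members made up 79.1% ± 0.630 of it in SmoM2 and 74.5% ± 4.90 in control. Pde4b alone took 20.4% ± 2.95 in SmoM2 and 21.5% ± 3.56 in control. Pde10a took 2.02% ± 0.359 in SmoM2 and 1.13% ± 0.384 in control, so even in SmoM2 libraries it was a minor transcript of the family.

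Of the other 12 phosphodiesterases of this family, 9 were tested, 5 higher and 4 lower in SmoM2 with a median log2 fold change of 0.02, and edgeR called none of them. That median was −0.08 without control 1 and −0.11 without SmoM2 4, and −0.04 with counts divided by 5. Pde9a, a cGMP-specific enzyme, averaged 24.5 ± 4.26 CPM in SmoM2 and 37.1 ± 16.6 CPM in control, with a log2 fold change of −0.60 (SE 0.32, 95% interval −1.34 to 0.14). Per kb it ranked with Pde8a and Pde5a, and its share of the family was 9.47% in SmoM2 and 14.3% in control. Pde4a, the other well-expressed relative of Pde4b, averaged 22.7 ± 1.11 CPM in SmoM2 and 21.7 ± 1.45 CPM in control. Pde1c was low, at 1.01 ± 0.409 CPM in SmoM2 and 0.584 ± 0.363 CPM in control. The photoreceptor genes Pde6a, Pde6b and Pde6c did not pass the filter, and Pde6c had no count in any library.

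No enzyme that makes cyclic nucleotides was called by edgeR or DESeq2. Of 9 adenylyl cyclases tested, 2 were higher and 7 lower in SmoM2 (median log2 fold change −0.08). Without control 2 the split was 5 higher and 4 lower with a median of 0.03, and without SmoM2 3 it was 4 higher and 5 lower, so the list had no stable direction. Adcy7 and Adcy6 had the highest CPM, Adcy7 at 148 ± 27.1 in SmoM2 and 146 ± 43.7 in control, and Adcy6 at 106 ± 3.97 in SmoM2 and 107 ± 9.44 in control. Adcy5 averaged 30.7 ± 5.55 CPM in SmoM2 and 23.7 ± 3.44 CPM in control. Its log2 fold change was 0.38 (SE 0.16, 95% interval 0.02 to 0.74) with an edgeR adjusted p of 1, and that of Adcy4 was −0.20.

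Of 6 guanylyl cyclase genes tested, 3 were higher and 3 lower (median −0.20, but −0.10 without control 2, −0.10 without SmoM2 3, and 0.0033 with counts divided by 5, where 5 genes were tested). Gucy1a1, a subunit of the nitric oxide receptor, had 15.3, 15.1, 19.1 and 16.4 CPM in SmoM2 libraries, against 19.9, 36.9, 24.2 and 27.7 CPM in control libraries. The groups did not overlap, as for 2.44% of all genes, and the log2 fold change of −0.72 (SE 0.19, 95% interval −1.14 to −0.30) had an edgeR adjusted p of 1. Its partner subunit Gucy1b1 averaged 13.2 ± 1.77 CPM in SmoM2 and 17.5 ± 5.30 CPM in control, with overlapping groups. The natriuretic peptide receptors Npr2 and Npr1 had log2 fold changes of 0.0019 and 0.32, Npr2 at 205 ± 6.78 CPM in SmoM2 and 205 ± 7.31 CPM in control.

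Of 11 Gs-coupled receptors tested, 3 were higher and 8 lower, none called (median −0.10). limma-voom gave 5 higher and 6 lower, as did leaving out control 3 with a median of −0.0025, and without SmoM2 4 the split was 1 higher and 10 lower. Vipr2, a receptor for vasoactive intestinal peptide, averaged 92.2 ± 26.1 CPM in SmoM2 and 91.6 ± 22.5 CPM in control, and the prostaglandin E receptor Ptger4 60.5 ± 7.08 CPM in SmoM2 and 64.6 ± 16.0 CPM in control. The parathyroid hormone receptor Pth1r had a log2 fold change of −0.14.

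Among 12 effectors of cyclic nucleotides 6 were higher and 6 lower, none called (median 0.0049, which took either sign when 1 library was left out, between −0.01 without SmoM2 1 and 0.03 without control 3). Prkar1a, a regulatory subunit of PKA, averaged 443 ± 17.9 CPM in SmoM2 and 438 ± 23.8 CPM in control, and the catalytic subunit Prkacb 82.1 ± 2.09 CPM in SmoM2 and 64.7 ± 31.7 CPM in control. Prkar2b, another regulatory subunit, averaged 8.25 ± 2.32 CPM in SmoM2 and 5.12 ± 0.908 CPM in control, a log2 fold change of 0.69 (SE 0.23, 95% interval 0.15 to 1.22) with an edgeR adjusted p of 1. Protein kinase G type 2, Prkg2, had a log2 fold change of −0.33.

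Among 11 PKA anchors and cyclic nucleotide exporters 8 were higher and 3 lower, none called (median 0.09, between 0.05 without control 1 and 0.13 without control 4). Abcc4, which exports cAMP from cells, had 16.5, 16.9, 13.6 and 14.4 CPM in SmoM2 libraries, against 10.6, 8.05, 13.3 and 12.0 CPM in control libraries. Its groups did not overlap, with SmoM2 higher as for 1.02% of all genes, and the log2 fold change was 0.48 (SE 0.17, 95% interval 0.10 to 0.86) with an edgeR adjusted p of 1. The anchors Akap12 and Akap13 had log2 fold changes of 0.01 and 0.28.

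All 11 genes listed as cAMP and CREB response genes had a lower mean in SmoM2 (median log2 fold change −0.17, against −0.0042 for all genes tested), 9 to 11 of them under the alternatives, and none was called. The median was −0.05 without control 3, −0.08 without control 2, −0.29 without SmoM2 2 and −0.30 without control 4. The smallest difference was that of Crem, at −0.01. Fos averaged 4600 ± 1729 CPM in SmoM2 and 5458 ± 732 CPM in control, and Nr4a1 3811 ± 663 CPM in SmoM2 and 4266 ± 1115 CPM in control, and the 95% interval of every gene in the list spanned 0. Cited2 and Areg had log2 fold changes of −0.33 and −0.73. Fos and Nr4a1 are immediate early genes that many stimuli besides cAMP induce.

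**Figure D4:**
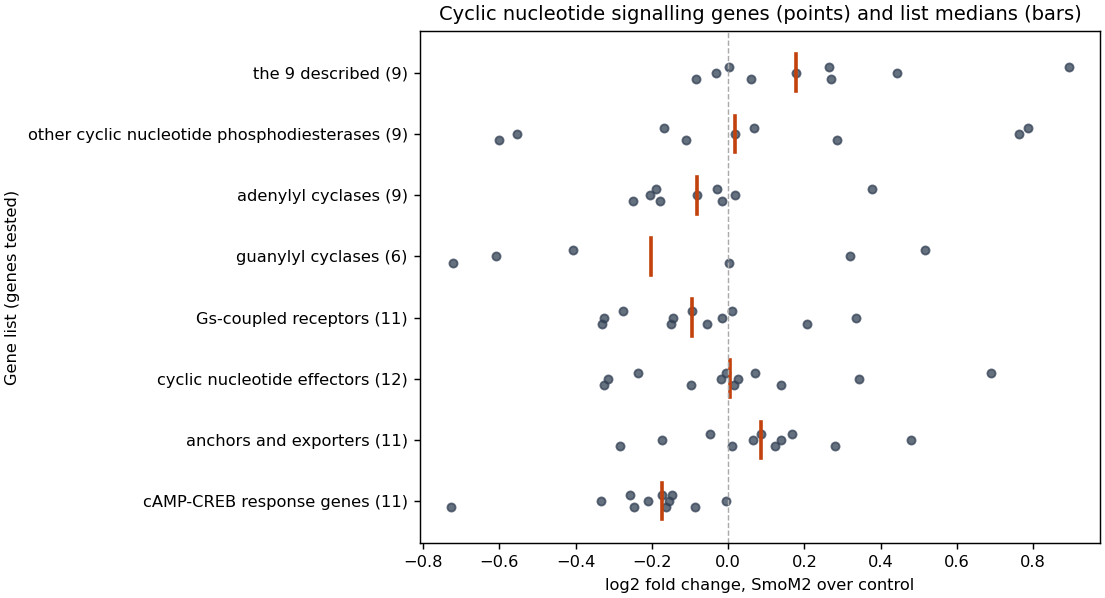
Log2 fold change, SmoM2 over control, of each tested gene (points) in 8 lists of cyclic nucleotide signalling genes, with the list median as a bar. List medians lie between −0.20 for guanylyl cyclases and 0.18 for the 9 described genes.

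Covariation with stromal markers was examined within groups, a measure the choice of genes did not use. Each member's log2 CPM and the level of 5 marker lists, each minus its group mean, gave 45 relations over the 8 libraries, tested by exact two-sided permutation within groups with Benjamini-Hochberg adjustment over the 45. None passed, 4 had an unadjusted p under 0.05, and the smallest adjusted permutation p was 0.234. Pde8a with inflammatory activation (12 genes such as Il6 and Cxcl1) gave Pearson r 0.87 (exact permutation p 0.00694, adjusted 0.234) and Spearman rho 0.83 (p 0.0243, adjusted 0.609), and r was 0.82 without SmoM2 2 and control 3, the 2 libraries farthest from the median. Pde5a with pericyte markers gave Pearson r 0.89 (exact permutation p 0.0104, adjusted 0.234) and Spearman rho 0.67 (p 0.109, adjusted 0.609), and r was 0.93 without SmoM2 1 and control 2. Control 1, the lowest of its group in both Pde5a and pericyte level, stayed in that check, which cannot show whether the relation rests on it.

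Pde1a with adventitial fibroblast markers gave Pearson r −0.89 (exact permutation p 0.0208, adjusted 0.312) and Spearman rho −0.64 (p 0.128, adjusted 0.609). That r was −0.29 without SmoM2 3 and control 4, so it rested on those libraries. Pde1a with alveolar fibroblast markers gave Pearson r 0.79 (exact permutation p 0.0451, adjusted 0.391) and Spearman rho 0.43 (p 0.333, adjusted 0.778), and r was 0.58 without SmoM2 1 and control 4. SmoM2 3, the highest of its group in both Pde1a and alveolar level, stayed in that check. Pde3b with adventitial fibroblast markers gave Pearson r 0.89 (exact permutation p 0.0608, adjusted 0.391) and Spearman rho 0.26 (p 0.479, adjusted 0.822), and r was −0.76 without SmoM2 3 and control 4, the opposite sign. Pde3b with alveolar fibroblast markers gave Pearson r −0.86 (exact permutation p 0.0521, adjusted 0.391) and Spearman rho −0.40 (p 0.363, adjusted 0.778), and r was −0.77 without SmoM2 1 and control 4. That check kept SmoM2 3, which had the lowest Pde3b value and the highest alveolar level of its group. It therefore cannot show whether the relation rests on SmoM2 3. Pde4b, for which inflammatory induction is known, with inflammatory activation gave Pearson r 0.52 (exact permutation p 0.245, adjusted 0.744) and Spearman rho 0.45 (p 0.330, adjusted 0.778), and r was 0.08 without SmoM2 2 and control 3. The value of Pde10a farthest from 0 was with smooth muscle contractile markers, Pearson r −0.74 (exact permutation p 0.0694, adjusted 0.391) and Spearman rho −0.69 (p 0.0799, adjusted 0.609), and r was −0.75 without SmoM2 1 and SmoM2 4. Control 4, with the highest Pde10a value and the lowest smooth muscle level of its group, stayed in that check. Whether the relation rests on control 4 is therefore not shown.

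**Figure D5:**
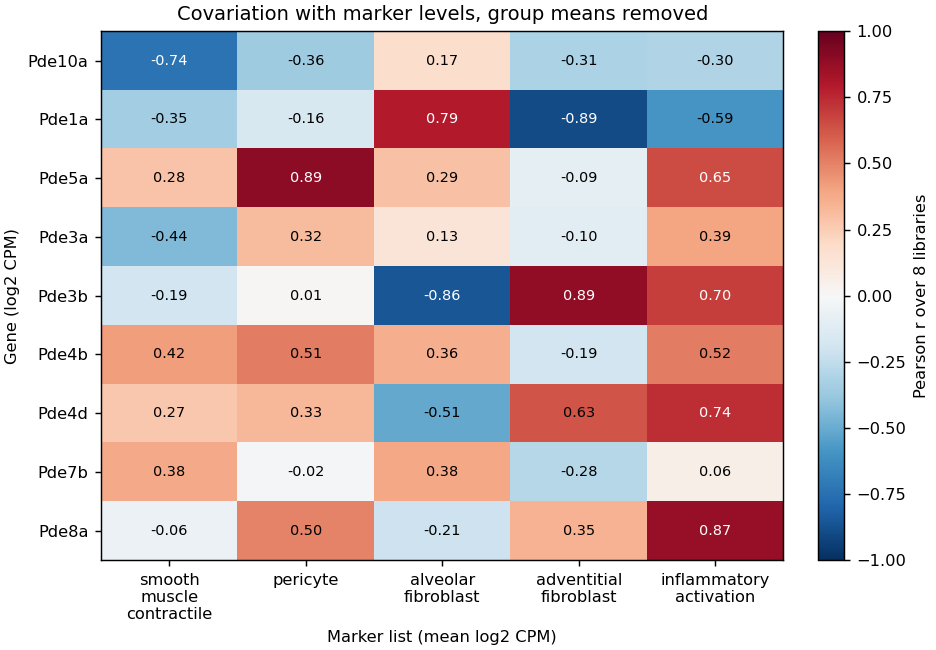
Pearson r over 8 libraries between each gene's log2 CPM (rows) and the mean log2 CPM of 5 marker lists (columns), with group means removed. Pde5a with pericyte markers (0.89) and Pde8a with inflammatory activation (0.87) are the strongest positive cells that keep their sign without the 2 farthest libraries. For Pde5a that check kept control 1, the lowest of its group in both.

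Across the 8 libraries, with the groups left in, the log2 CPM of 10820 genes averaging 5 CPM or more was ranked by Pearson r with that of Pde10a, as a description. The most like were Inppl1 (0.95), Slc25a30 (0.93), Irak3 (0.92), Ecpas (0.92) and Dock9 (0.92). The most unlike were Ppfibp2 (−0.96), Ppcdc (−0.96), Uxs1 (−0.96), Tmem98 (−0.94) and Mtss1 (−0.94). Inppl1, a phosphoinositide phosphatase gene, averaged 71.0 ± 4.92 CPM in SmoM2 and 59.2 ± 4.64 CPM in control, and Mtss1 39.1 ± 7.76 CPM in SmoM2 and 70.8 ± 22.6 CPM in control. Because the groups were left in, the ranking contains the Pde10a difference that chose the family. With 8 libraries and this many genes, values of this size are the extremes of a long list, and no function is implied.

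In mm10 the other members lie on these intervals. Pde1a (ENSMUSG00000059173) lies on chromosome 2, 79834453 to 80129458, Pde5a (ENSMUSG00000053965) on chromosome 3, 122728947 to 122859374, and Pde3a (ENSMUSG00000041741) on chromosome 6, 141249269 to 141507448. Pde3b (ENSMUSG00000030671) lies on chromosome 7, 114415281 to 114539251 and Pde8a (ENSMUSG00000025584) on chromosome 7, 81213596 to 81334533. Pde4b (ENSMUSG00000028525) lies on chromosome 4, 102087543 to 102607259, Pde4d (ENSMUSG00000021699) on chromosome 13, 108449948 to 109953461 and Pde7b (ENSMUSG00000019990) on chromosome 10, 20398004 to 20725078. Annotated genes share exon bases with 2 members. The antisense gene Gm28523 shares 741 exon bases with Pde3a and averaged 0.625 CPM in SmoM2 and 0.466 CPM in control. The opposite-strand transcript 4930447N08Rik shares 55 with Pde5a and averaged 0.0394 CPM in SmoM2 and 0.0535 CPM in control. The library kit named in the labels does not mark strand, so reads of such pairs cannot be told apart, but their levels are small beside those of Pde3a and Pde5a. Other annotated genes inside the members share no exon base with them, and each averaged under 0.5 CPM except the pseudogene Rps3a3 in Pde4d, at 26.4 CPM in SmoM2 and 29.4 CPM in control.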

How the data were processed

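Polyadenylated RNA of sorted cells from 8 mouse lungs was sequenced, 4 libraries per group. The authors deposited estimated counts per Ensembl gene, not scaled to a common library total and already whole, so no rounding was needed. Tools listed in the submitters' processing notes are HISAT, StringTie, DESeq and FastQC, with mm10 as build, and their versions and roles are not given in the sources used here. The authors' deposited comparison has, per the file headers, a normalised signal averaged in each group. It also has, per the file headers, a fold (ratio of these averages) with its log2, and p-values with their adjusted form. Depth was 91.6 to 111.6 M units per library, about 5 per fragment.

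The main test was edgeR 4.0.16 (R 4.3.3), glmQLFit with robust dispersion, on filterByExpr genes with TMM factors, group as the sole term, and adjusted p under 0.05 over all genes. The SE was derived from the fold change and the F statistic. log2 CPM used a prior count of 2. Alternatives used DESeq2 1.42.0 and limma-voom (limma 3.58.1). The edgeR and permutation code was tested on simulated data. Members and lists were chosen with earlier results of these data known. Gene lengths, positions and transcripts came from GENCODE M21 (mm10), promoter windows from RefSeq.

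Named genes are the 9 members, per list any called gene or else the 2 highest by CPM and the 2 smallest p, the 5 genes most like and 5 most unlike Pde10a by Pearson r, and genes that overlap a member. Others were named after their values were seen, and 1 gene that the rule names is not reported here. Intervals cover the spread between these mice.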

Additional observations from a re-analysis of the deposited data

Results flagged for a closer look

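Pde3a in the SmoM2 library 3 stood apart from its group. It had 36.1 CPM there, against 44.5, 43.6 and 44.9 CPM in the other SmoM2 libraries, and its gap to the nearest of them was 0.857 of the group's range, past Dixon's 95% critical value for 4 samples. Of 18 groups of 4 values examined this was the only one, and chance flags about 1 in 20. Without SmoM2 3 the Pde3a log2 fold change was 0.34. The same library also had the lowest value of its group for Pde3b (22.4 CPM), Pde4d (37.9 CPM), Pde8a (32.2 CPM) and Pde10a (15.8 CPM). It had the highest Pde1a value, 44.5 CPM, and was neither lowest nor highest for Pde4b, Pde5a and Pde7b.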

How the results depend on the processing

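edgeR called 0 genes under RLE factors, without the low-count filter, with sex as a covariate and with counts divided by 5, limma-voom called 0, and DESeq2 called 67. Leaving out 1 library gave 0 to 1 called genes, the 1 without SmoM2 4. Of the 9 members, 5 (without control 1 or SmoM2 2) to 9 (without control 3) were higher in SmoM2, against 7 with all libraries in the main test. With all libraries the count was 6 under limma-voom, without the low-count filter and with sex as a covariate, where Pde7b was slightly lower in SmoM2. No gene of the cyclic nucleotide lists outside the 9 members was called in any alternative, and among the members DESeq2 alone called Pde10a. Pde10a kept its direction in all alternatives, which is no support, because its values chose the family and its groups do not overlap. Its log2 fold change was 0.79 to 1.06 over the tools, scalings and left-out libraries, and the within-sex values above lie outside that range. Leaving out 1 library moved Pde4b between −0.24 (without control 1) and 0.14 (without control 3), Pde4d between −0.13 and 0.07, Pde5a between −0.05 and 0.18, and Pde7b between −0.10 and 0.14. With the longest transcript as gene length, 5 of the 8 neighbouring pairs kept their order and 5 differed beyond their spread in the direction of the exon-union order, against 3 with the union of exons, the pair with Pde10a counted in each, because the lengths themselves changed. Within-sex values and the order taken anew from the longest transcript were chosen after seeing the data. None of the 45 relations with markers passed under RLE factors, by rho or without any 1 library. The level order held in all 8 pairs without any 1 library and in SmoM2 libraries alone, and in 6 pairs in control libraries alone. Pde10a had the fewest fragments of the members. The SE of its log2 fold change, 0.18, was below those of Pde3b (0.27) and Pde4b (0.23) and above those of the other members.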
